A study of Homo sapiens with 4 samples.

Results

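The genes that copy the genome in S phase were followed in K562 cells with and without RUNX1::ERG. The set holds 50 genes for origin licensing, the replicative helicase, the DNA polymerases, the sliding clamp and its loader, and their partners at the fork, chosen by name for these functions. This choice, and that of the lists set beside it, was made with earlier results of these data known. All 50 were found among the 25702 genes of the count files through their NCBI gene numbers, and all 50 passed the filter on low counts together with 15394 genes in all. K562 is an established human line grown from chronic myeloid leukemia. Its cells were transfected by nucleofection with 10 µg of the plasmid LeGO-iG2 carrying RUNX1::ERG, or with the same plasmid without an insert, the empty vector, and the general protocol assays cells at 72 h. The samples were 2 biological replicates of each group, labelled as untreated otherwise, and the control genotype was K562 with the empty vector. The transfection is transient, so a library can mix cells with and without the plasmid, and sorting of transfected cells before RNA extraction is not given in the sources used here. Whole transcriptome sequencing of poly(A)-enriched RNA gave 59695387 to 82352144 counts per library. As the RNA came from bulk cells, fewer cells in a phase of the cycle and less RNA per cell cannot be told apart.

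DNA replication starts at origins, where the origin recognition complex (ORC), CDC6 and CDT1 load the ring of MCM2 to MCM7 onto DNA before S phase, and geminin (GMNN) holds CDT1 back afterwards. The kinase CDC7 with its activator DBF4 then allows CDC45 and the GINS complex to join the ring, which forms the active helicase. Polymerase alpha-primase starts each strand, polymerases delta and epsilon extend it on the clamp PCNA loaded by replication factor C (RFC), RPA coats single-stranded DNA, and FEN1 and LIG1 finish the Okazaki fragments. Many of these genes are known targets of the E2F factors and are most highly transcribed around the start of S phase.

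ERG, the 3′ partner of the fusion, was counted 4 times in either control library, and 80443 and 27218 times in replicates 1 and 2 with the fusion, which matches the labels, and replicate 1 carried more of it. MYC, a driver of cell growth and proliferation, fell by 1.11 on the log2 scale (adjusted p = 0.002, edgeR's quasi-likelihood test). All 10 markers of the erythroid leukemia K562 were present in every library, among them GATA1 at 256 to 302 CPM (counts relative to the library total, scaled by TMM), and 2 of them, TAL1 and EPOR, rose. The 8 megakaryocytic markers summed to 74.4 and 85.1 CPM with the empty vector and to 494 and 433 CPM with RUNX1::ERG. Of the 7 of these that were tested, 6 rose, and GP9 stayed at or near 0. Lymphoid markers summed to 34.85 and 36.17 CPM with the empty vector and to 22.56 and 24.98 CPM with RUNX1::ERG, with MS4A1 at 0. CD3D made up most of this, at 32.49 and 34.69 CPM with the empty vector against 20.47 and 23.55 CPM with RUNX1::ERG. CD3D was lower but not called (log2 fold change -0.61, adjusted p = 0.09 in edgeR). The 4 monocyte markers summed to 7.90 and 10.5 CPM with the empty vector and to 22.2 and 20.8 CPM with RUNX1::ERG. Of these, CD14 and LYZ rose. CSF1R and FCGR3A were not tested. In both RUNX1::ERG libraries CSF1R lay above and FCGR3A below both controls, at no more than 0.697 CPM in any library. The 4 epithelial and fibroblast markers summed to 80.1 to 87.5 CPM, of which COL1A1 rose. Most of the sum was EPCAM, at 75.4 and 81.2 CPM with the empty vector against 55.5 and 58.2 CPM with RUNX1::ERG. It was lower but not called (log2 fold change -0.46, adjusted p = 0.14 in edgeR). Without 1 of the RUNX1::ERG libraries, the adjusted p of TAL1, EPOR or LYZ went up to between 0.054 and 0.25. Whether this shift in lineage markers has a part in the values of the replication genes was not tested.

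The replication genes were mostly a little lower with RUNX1::ERG, and none of the 50 passed the test. Their levels summed to 7047 and 7606 CPM in empty vector replicates 1 and 2 and to 6381 and 6509 CPM in RUNX1::ERG replicates 1 and 2, a mean difference of -12%. The fitted log2 fold change, RUNX1::ERG minus empty vector, was below 0 for 42 of the 50 members (84%), compared with 50.2% of all genes tested. Its median was -0.158 over the members and -0.002 over all genes, with quartiles of -0.266 and -0.027, and the members ran from -0.51 for ORC5 to 0.12 for ORC6. At an adjusted p of 0.05 in edgeR's quasi-likelihood test, 0 members were called in either direction, while 1.15% of all genes were called lower and 3.64% higher. DESeq2's Wald test and limma voom also called 0 members. At an unadjusted p of 0.05, 6 members were lower (12%), beside 7.26% of all genes, and 0 members were higher, beside 10.7%. For 18 members (36%) each library with the fusion was under each control library, beside 22.1% of all genes, and for 1 member, ORC6, each was above, beside 25.1%. The other 31 members overlapped between the groups. The median level was 96.1 CPM over the members and 19.2 CPM over all genes tested. Of the 9137 tested genes at 10 CPM or more, 54.3% were fitted below 0, and their median was -0.029. At an unadjusted p of 0.05 in edgeR, 8.62% of them were lower and 764 genes higher. Both RUNX1::ERG libraries lay below both controls for 25.6% of them and above for 1948 genes. The members' shift was thus smaller beside these more abundant genes than beside all genes. With 2 libraries in each group an exact two-sided permutation test of a single gene has a smallest p of 0.333, and the p-values given here depend on edgeR pooling the spread of many genes.

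**Figure D1:**
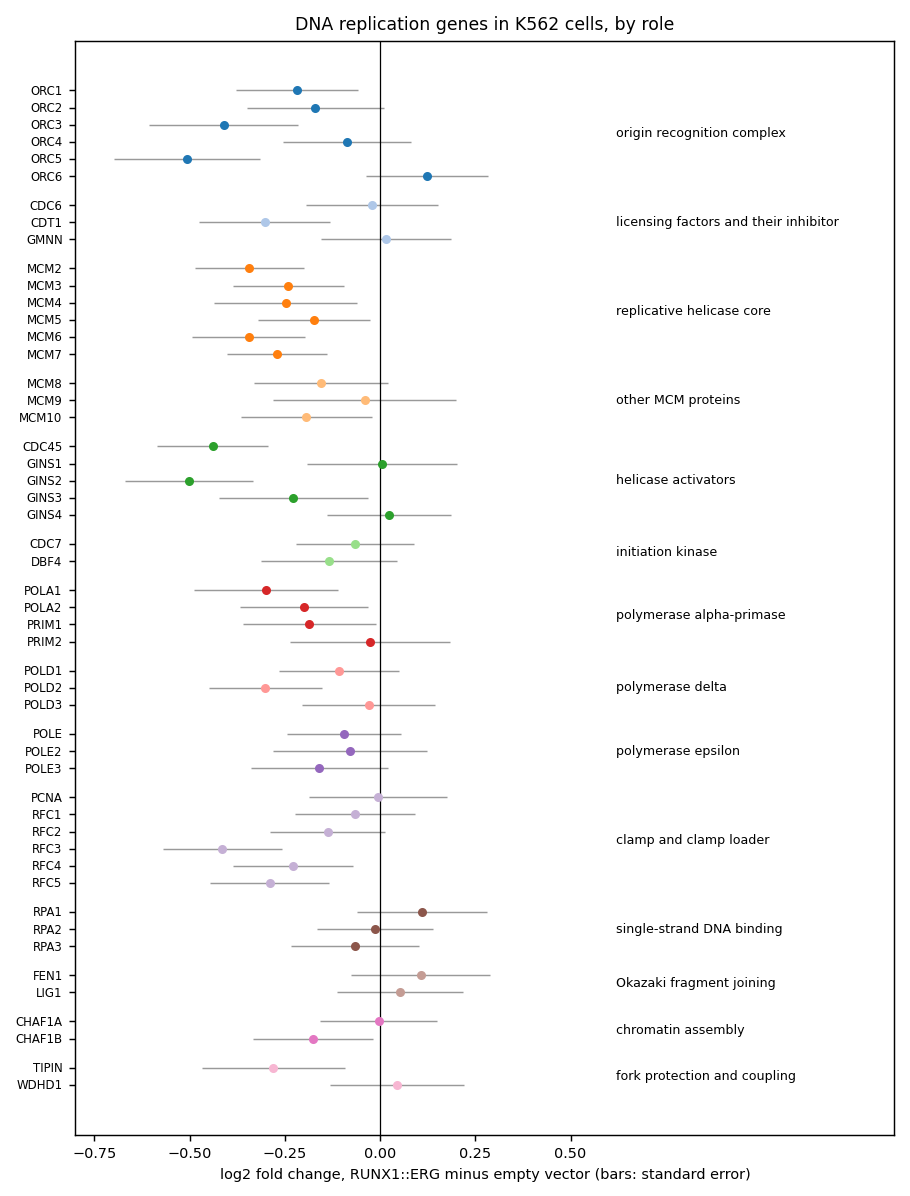
Log2 fold change of each of the 50 replication genes (x axis, RUNX1::ERG minus empty vector, edgeR), grouped by role on the y axis; points are the fitted values, bars their standard errors, and colours mark the role groups. Most points lie left of 0, with ORC5, GINS2 and CDC45 farthest left at -0.51, -0.50 and -0.44, while FEN1, RPA1 and ORC6 lie to the right.

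The 6 members with an unadjusted p under 0.05 were CDC45, GINS2, ORC5, RFC3, MCM2 and MCM6, which serve at origins, in the helicase and in the clamp loader. Their promoters are shown because E2F and NF-Y words are common in this gene class, and PCNA, whose fold change was near 0, was added as a contrast after the values were seen. Each sequence is the 250 bases before the first start listed in RefSeq on GRCh38.p14, read 5′ to 3′ along the gene's strand. Capitals mark the E2F words TTTCCCGC, TTTCGCGC, TTTGCCGC and TTTGGCGC and the NF-Y word CCAAT, on either strand. CDC45 lies at chr22:19479670-19479919 (plus strand, 3 starts in the table), GINS2 at chr16:85688955-85689204 (minus), ORC5 at chr7:104208014-104208263 (minus), RFC3 at chr13:33817899-33818148 (plus), MCM2 at chr3:127598161-127598410 (plus), MCM6 at chr2:135876444-135876693 (minus) and PCNA at chr20:5126623-5126872 (minus, 2 starts).
CDC45: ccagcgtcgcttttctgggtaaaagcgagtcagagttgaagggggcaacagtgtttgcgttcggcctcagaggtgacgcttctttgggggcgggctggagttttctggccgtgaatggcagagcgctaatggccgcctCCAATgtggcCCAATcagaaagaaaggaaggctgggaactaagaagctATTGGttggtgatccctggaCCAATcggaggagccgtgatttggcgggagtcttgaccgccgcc
GINS2: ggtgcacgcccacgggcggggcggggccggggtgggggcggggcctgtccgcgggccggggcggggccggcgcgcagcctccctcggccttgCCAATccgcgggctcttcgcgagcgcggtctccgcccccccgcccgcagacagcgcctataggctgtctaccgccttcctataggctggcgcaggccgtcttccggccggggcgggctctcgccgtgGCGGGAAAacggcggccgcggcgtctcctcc
ORC5: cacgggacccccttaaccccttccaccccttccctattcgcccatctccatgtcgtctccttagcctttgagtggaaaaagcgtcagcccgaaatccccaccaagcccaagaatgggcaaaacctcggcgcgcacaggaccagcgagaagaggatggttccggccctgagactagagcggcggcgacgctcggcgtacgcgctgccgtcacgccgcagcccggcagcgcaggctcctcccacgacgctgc
RFC3: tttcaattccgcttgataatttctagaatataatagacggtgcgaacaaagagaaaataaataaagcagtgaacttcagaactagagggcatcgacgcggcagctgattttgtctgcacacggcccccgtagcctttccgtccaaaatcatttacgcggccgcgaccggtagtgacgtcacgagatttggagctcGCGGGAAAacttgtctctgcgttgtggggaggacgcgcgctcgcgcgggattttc
MCM2: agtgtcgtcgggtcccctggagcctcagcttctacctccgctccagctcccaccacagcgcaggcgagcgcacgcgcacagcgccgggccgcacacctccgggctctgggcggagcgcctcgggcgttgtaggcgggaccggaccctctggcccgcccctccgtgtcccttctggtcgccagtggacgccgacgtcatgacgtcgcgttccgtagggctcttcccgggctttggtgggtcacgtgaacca
MCM6: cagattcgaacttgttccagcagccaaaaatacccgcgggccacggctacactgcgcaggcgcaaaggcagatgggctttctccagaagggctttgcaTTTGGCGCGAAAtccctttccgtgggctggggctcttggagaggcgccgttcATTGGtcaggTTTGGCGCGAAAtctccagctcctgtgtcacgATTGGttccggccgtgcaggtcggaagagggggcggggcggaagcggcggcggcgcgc
PCNA: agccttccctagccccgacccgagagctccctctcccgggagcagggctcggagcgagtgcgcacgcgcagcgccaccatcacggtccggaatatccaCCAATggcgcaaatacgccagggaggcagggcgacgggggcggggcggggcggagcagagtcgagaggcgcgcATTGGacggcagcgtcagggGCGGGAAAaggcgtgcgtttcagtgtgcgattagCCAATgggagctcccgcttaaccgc

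CDC45 has 4 NF-Y words and none of the 4 E2F words listed, and ORC5 has no marked word. Other forms of an E2F site were not searched for, so a promoter without a marked word may still hold one. GINS2 and RFC3 each have 1 E2F word, which lies 23 and 47 bases before the start. In MCM6, TTTGGCGC and the reverse complement of TTTCGCGC overlap, and this pair occurs at 2 places, so its 4 matches are 2 stretches of DNA, with 2 NF-Y words between and after them. MCM2 shows no capitals in these 250 bases, has 1 E-box word (CACGTG) and 1 Runt word (TGTGGT) there, and has 2 E2F words in the first 50 bases after the start, which are not printed. PCNA has 1 E2F word 51 bases before its start and 3 NF-Y words.

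A promoter was listed for 44 of the 50 members, the others being MCM4, MCM5, GINS4, POLD3, RPA2 and RPA3. In windows of 250 bases before and 50 after the start, 18 members (40.9%) had an E2F word, compared with 5.25% of 11379 promoters of tested genes and 3.33% of all 27305 promoters. The NF-Y word was found in 24 members (54.5%), beside 36.8% of tested genes. The E-box word was in 7 members (15.9%, beside 9.97%), the Runt word in 6 (13.6%, beside 9.33%) and the Ets word CCGGAAGT in 3 (6.82%, beside 8.43%). The 18 members with an E2F word had a median log2 fold change of -0.234, and 8 of them were lower in both RUNX1::ERG libraries. In the 26 members without one, the median was -0.137 and 9 were lower in both. Over all genes tested, 22.1% were lower in both. The split was made in the members only, and the difference between its parts was not tested. These are matches of letters, with no measurement of binding.

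The helicase ring gave the most even picture. MCM2 (NCBI gene 4171, GRCh37 chromosome 3, 127317253 to 127341279) was at 288 and 294 CPM in the empty vector libraries and at 234 and 225 CPM in the RUNX1::ERG libraries, replicates 1 and 2 in that order here and below. Its log2 fold change was -0.34 ± 0.14 (SE, adjusted p = 0.24). MCM6 (NCBI gene 4175, GRCh37 chromosome 2, 136597196 to 136634013) was at 255 and 274 CPM against 199 and 217 CPM, a log2 fold change of -0.35 ± 0.15 (SE, adjusted p = 0.25). For both genes each RUNX1::ERG library lay below each empty vector library, with a gap wider than the spread within either group. MCM7, by far the highest of the 6 per length of transcript, was at 1078 and 1054 CPM against 917 and 849.6 CPM. MCM3 was at 309 and 332 CPM against 264 and 277 CPM, and MCM5 at 238 and 246 CPM against 222 and 207 CPM. Neither group overlapped the other for these 3 subunits, at adjusted p-values of 0.31, 0.44 and 0.61. MCM4 was the exception, since empty vector replicate 1 at 367 CPM lay below RUNX1::ERG replicate 2 at 408 CPM, the other values being 529 and 347 CPM. The 6 subunits together summed to 2534 and 2728 CPM with the empty vector and to 2183 CPM in each RUNX1::ERG library, a difference of -17.0% in the mean.

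**Figure D2:**
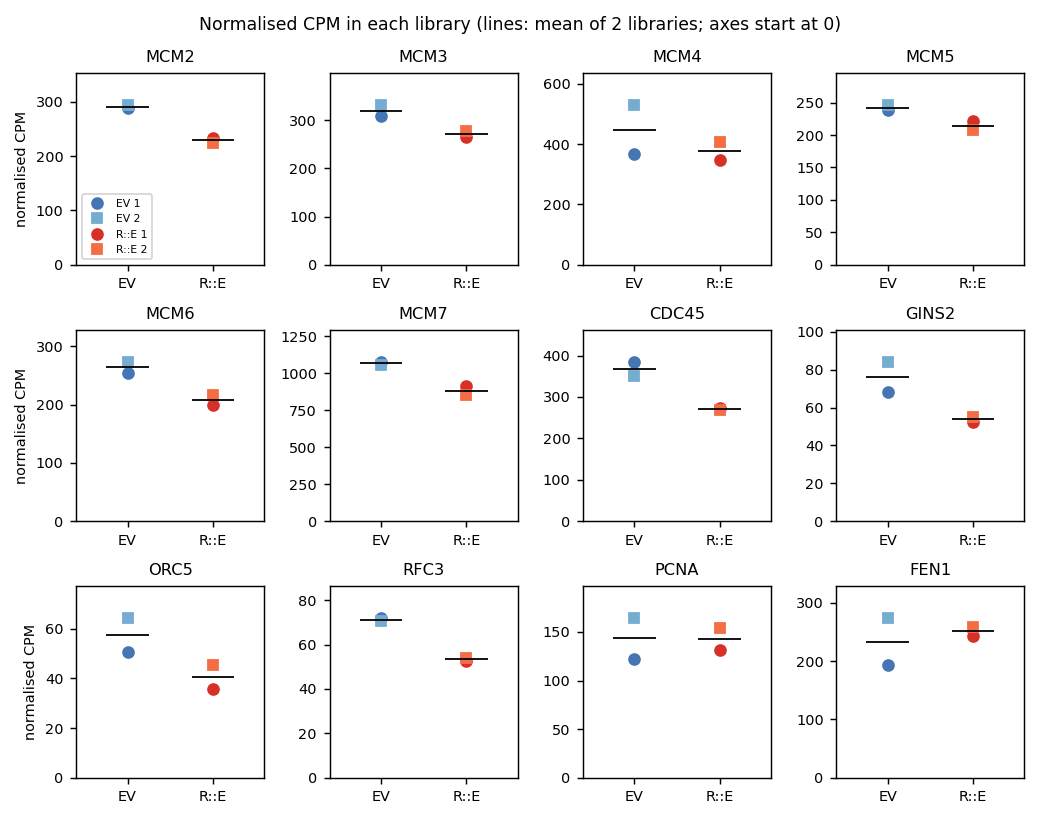
Normalised CPM (y axis, from 0) of 12 members in each of the 4 libraries, empty vector (EV) in blue and RUNX1::ERG (R::E) in red, circles for replicate 1 and squares for replicate 2, with lines at the mean of each group. The groups stand apart for MCM2, MCM3, MCM5, MCM6, MCM7, CDC45, GINS2, ORC5 and RFC3, and overlap for MCM4, PCNA and FEN1. The 12 were picked by hand as the ring, the members with the 4 smallest unadjusted p, and PCNA and FEN1. Of all 50 members, 18 (36%) were lower in both RUNX1::ERG libraries, beside 22.1% of all genes tested. For 1 member both were higher, beside 25.1%, and 31 members overlapped.

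Per kilobase of the canonical transcript, MCM7 stood at 432 CPM with the empty vector and 358 CPM with RUNX1::ERG. The other 5 ring subunits ran from 70.0 (MCM5) to 110 (MCM4) CPM per kb with the empty vector and from 55.4 (MCM6) to 92.9 (MCM4) CPM per kb with RUNX1::ERG, so MCM7 lay far above its partners in both groups. Its exons share 8.49% of their length with other genes, among them the microRNA gene MIR93, and the strand setting of the counting is not given in the sources used here. MCM2 shares 23.6% of its exon length with another annotated gene, so its counts are less certain. The 3 MCM proteins outside the ring overlapped between the groups. MCM10, which helps to activate the helicase, was at 104 and 130.4 CPM against 94.4 and 111 CPM (log2 fold change -0.19, adjusted p = 0.63). MCM8 and MCM9, known from recombination repair, had log2 fold changes of -0.16 and -0.04, and MCM9 was the lowest of all members per length, at 1.69 CPM per kb with the empty vector and 536 to 813 counts per library. Exons of MCM8, GINS4, POLA2, TIPIN, PRIM1 and PRIM2 share 18.3% to 33.3% of their length with other genes, which makes their counts less certain too.

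CDC45 and GINS2 had the most negative fold changes among the helicase activators, and neither passed the threshold. CDC45 (NCBI gene 8318, GRCh37 chromosome 22, 19466980 to 19508135), the partner that turns the ring into a helicase, had 385 and 351 CPM with the empty vector. It had 273 and 269.6 CPM with RUNX1::ERG, and its log2 fold change was -0.44 ± 0.15 (SE, adjusted p = 0.12). The RUNX1::ERG libraries were nearly equal and lay well below both controls. GINS2 (NCBI gene 51659, GRCh37 chromosome 16, 85709804 to 85723679), a subunit of the GINS complex, had 68.2 and 84.2 CPM against 52.5 and 55.1 CPM, with a log2 fold change of -0.50 ± 0.17 (SE, adjusted p = 0.13). Here too the groups were apart, but the controls differed more from each other. The other 3 GINS subunits overlapped between the groups. GINS1 was at 40.8 and 59.0 CPM against 48.8 and 51.4 CPM, and GINS4 at 49.2 and 55.7 CPM against 54.1 and 52.6 CPM, with log2 fold changes of 0.01 and 0.02. GINS3 was at 28.0 and 35.0 CPM against 24.6 and 29.3 CPM, a difference of -0.23. The difference between GINS2 and the other subunits was not tested. Summed over the 5 genes, the activators were at 571 and 585 CPM against 454 and 458 CPM (-21.2%), of which CDC45 made up most. Per kilobase, CDC45 at 196 CPM was far above GINS2 at 29.0 and the other 3 subunits at 13.9 to 15.1 CPM per kb with the empty vector.

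Among the origin recognition genes the fitted differences ran in both directions. ORC5 (NCBI gene 5001, GRCh37 chromosome 7, 103766788 to 103848495) had the largest negative value of all 50 members. It was at 50.8 and 64.2 CPM with the empty vector and at 35.6 and 45.4 CPM with RUNX1::ERG, a log2 fold change of -0.51 ± 0.19 (SE, adjusted p = 0.19). Each group spread by a similar amount, replicate 2 being higher in both, and the groups did not overlap. Its log2 fold change was -0.67 (adjusted p = 0.048) without empty vector replicate 1, but -0.33 (adjusted p = 0.52) without empty vector replicate 2, and -0.34 (adjusted p = 0.67) and -0.71 (adjusted p = 0.10) without the first and the second library of the fusion. ORC3 was at 50.4 and 61.7 CPM against 35.9 and 48.5 CPM (-0.41, adjusted p = 0.31), with a narrow gap between its groups. ORC1, the largest ORC subunit, was at 117 and 139 CPM against 106 and 115 CPM (-0.22, adjusted p = 0.55). ORC2 and ORC4 overlapped between the groups, with log2 fold changes of -0.17 and -0.09. ORC6 was the only member higher in both RUNX1::ERG libraries, at 57.6 and 54.2 CPM against 49.5 and 53.1 CPM, and its log2 fold change of 0.12 (95% confidence interval -0.23 to 0.48, adjusted p = 0.77) was within its error.

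Of the licensing factors, CDT1 was at 197 and 169 CPM against 166 and 130.3 CPM (log2 fold change -0.30 ± 0.17 SE, adjusted p = 0.41), with a gap of only a few CPM between the nearest libraries. CDC6, the ATPase that loads the ring with it, and GMNN, the inhibitor of CDT1, had log2 fold changes of -0.02 and 0.02 with overlapping groups. GMNN stood at 108 and 140.4 CPM against 123 and 127 CPM. The initiation kinase CDC7 and its activator DBF4 were at -0.07 and -0.14, and DBF4 at 86.4 and 111 CPM against 82.3 and 97.4 CPM showed more spread within the groups than between them.

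**Figure D3:**
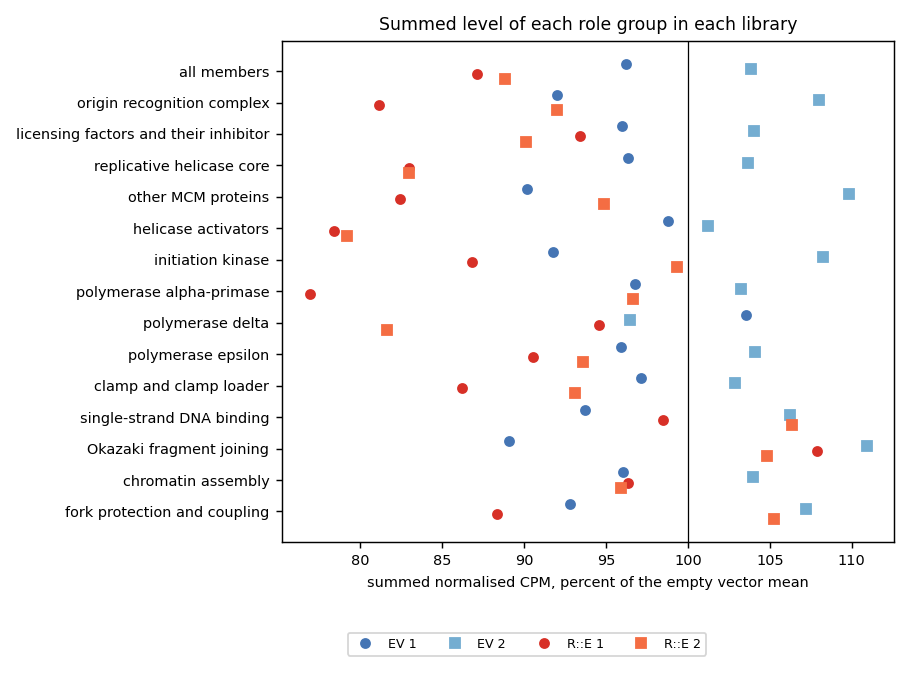
Summed normalised CPM of all 50 members and of each of the 14 role groups in each library (x axis, percent of the empty vector mean; circles replicate 1, squares replicate 2; EV empty vector, R::E RUNX1::ERG). Both red points lie left of both blue points for the whole set, the ring, the helicase activators, the licensing factors, polymerases delta and epsilon, and the clamp and its loader. They do so very narrowly for polymerase alpha-primase. The groups overlap for single-strand DNA binding and Okazaki fragment joining. They also overlap for the other MCM proteins, the initiation kinase, chromatin assembly, and fork protection and coupling. For the origin recognition complex, empty vector replicate 1 and RUNX1::ERG replicate 2 are both at 359.8 CPM.

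The polymerase groups had 1 gene, POLD2, lower in both RUNX1::ERG libraries, where 22.1% of all genes tested were. Polymerase alpha-primase summed to 244 and 260.3 CPM against 194 and 244 CPM (-13.2%), and all 4 of its genes overlapped between the groups. POLA1, its catalytic subunit, was lowest in RUNX1::ERG replicate 1, at 56.5 CPM beside 73.5, 89.6 and 76.0 CPM in the other libraries in the usual order (log2 fold change -0.30, adjusted p = 0.47). POLA2 and PRIM1 were at -0.20 and -0.19 and PRIM2 at -0.03. In polymerase delta, POLD2, a small subunit, was at 285 and 266 CPM against 232 and 215 CPM (-0.30 ± 0.15 SE, adjusted p = 0.32), with the groups apart. The catalytic subunit POLD1 and the accessory POLD3 were at -0.11 and -0.03 and overlapped. The 3 polymerase epsilon genes POLE, POLE2 and POLE3 overlapped as well, with log2 fold changes of -0.10, -0.08 and -0.16, and POLE3, a histone-fold subunit, was at 144 and 192 CPM against 138 and 163 CPM (adjusted p = 0.73).

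RFC3 (NCBI gene 5983, GRCh37 chromosome 13, 34392206 to 34540695), a small subunit of the clamp loader, was the tightest of the lower members. It had 71.9 and 70.4 CPM with the empty vector against 52.7 and 54.1 CPM with RUNX1::ERG, a log2 fold change of -0.41 ± 0.16 (SE, adjusted p = 0.19). The gap between the groups was many times the difference within either. RFC5 was at 80.9 and 88.4 CPM against 66.4 and 72.1 CPM (-0.29, adjusted p = 0.38), and RFC4 at 113 and 98.8 CPM against 92.9 and 87.5 CPM (-0.23, adjusted p = 0.51). RFC2 was lower in both libraries as well, by little (-0.14, adjusted p = 0.71), whereas the large subunit RFC1 overlapped (-0.07). The clamp itself, PCNA, was at 123 and 164 CPM against 132 and 154 CPM. Its log2 fold change was -0.01, with a 95% confidence interval of -0.41 to 0.39, so differences of the size seen in most members lie within it. RFC3, RFC5 and POLD2 each have 1 annotated pseudogene by name, as do ORC1, FEN1 and TIPIN, while RPA3 has 2 and PCNA, DBF4 and RPA2 have 3, and how reads shared with such copies were counted is not given in the sources used here.

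The Okazaki fragment and single-strand binding genes overlapped between the groups. FEN1, the flap nuclease, was at 193 CPM in empty vector replicate 1, below the other 3 libraries at 273, 244 and 258 CPM, and its log2 fold change was 0.11 (95% confidence interval -0.30 to 0.51, adjusted p = 0.83). LIG1, the ligase that seals Okazaki fragments, was at 113 and 107 CPM against 127 and 102 CPM (0.05). RPA1, the largest subunit of the single-strand binding protein, was at 128 and 167 CPM against 152 and 166 CPM (0.11, adjusted p = 0.82), and RPA2 and RPA3 were at -0.01 and -0.07. The values above 0 of FEN1 and RPA1 rested on empty vector replicate 1, without which they were -0.13 and -0.07. The sums of these groups differed by 6.37% for FEN1 and LIG1 and by 2.40% for RPA, both higher with RUNX1::ERG and both overlapping between groups. Of the chromatin assembly factor CAF-1, CHAF1B was at 71.0 and 71.1 CPM against 60.0 and 65.7 CPM (-0.18, adjusted p = 0.63), while CHAF1A was at 143 and 161 CPM against 155 and 148 CPM (-0.004). TIPIN, of the fork protection complex, was at 23.9 and 26.5 CPM against 19.4 and 22.1 CPM (-0.28, adjusted p = 0.50). WDHD1, which links the helicase to polymerase alpha, overlapped at 0.04. Over the role groups, the counts of members lower in both RUNX1::ERG libraries were 5 of 6 in the ring, 4 of 6 in the clamp and loader, 3 of 6 in ORC and 2 of 5 among the activators, 1 each for licensing, polymerase delta, CAF-1 and fork protection, and 0 elsewhere. The share over all genes tested was 22.1%.

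The replicates of a group differed from each other by about as much as the groups did. Among the members the median log2 difference was 0.135 between empty vector replicates 2 and 1 and 0.12 between RUNX1::ERG replicates 2 and 1, compared with -0.018 and -0.003 over all genes. Empty vector replicate 2 was the highest of the 4 libraries for 33 of the 50 members, beside 24.8% of all genes tested. RUNX1::ERG replicate 1 was the lowest for 28 members, beside 24.9% of all genes. The size of the shift therefore depended on which libraries were set side by side. RUNX1::ERG replicate 1 was lower than empty vector replicate 2 for 44 members (median -0.258) and lower than empty vector replicate 1 for 38 (median -0.138). In the same 2 comparisons, 47.2% and 49.8% of all genes were lower. RUNX1::ERG replicate 2 was lower than empty vector replicate 2 for 43 members (median -0.182), but than empty vector replicate 1 for 25 only (median -0.013). Here the shares of all genes were 49.3% and 50.1%. In the fit without one library, the members' median was -0.203 without empty vector replicate 1, -0.084 without empty vector replicate 2, and -0.105 and -0.239 without the first and the second library of the fusion. In these 4 fits, 26 members stayed below 0 each time and ORC6 above it, and the other 23 members changed sign at least once.

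Part of the spread between replicates moved with base composition. Over the members, the difference between RUNX1::ERG replicates 2 and 1 had a Pearson r of -0.72 with the GC content of the transcript (n = 50 genes, Spearman's rho -0.68), and over 14088 tested genes r was -0.55. The same relation was weaker between the empty vector replicates, at -0.35 over the members and -0.11 over all genes. For the group difference r was -0.04 over the members and 0.06 over all genes. All points share the same 4 libraries. The 25 members with the higher GC content had a median log2 fold change of -0.17 and the 25 with the lower one -0.14. After a correction for GC content, chosen after seeing the data, the members' median was -0.161, 23 members (46%) were lower in both RUNX1::ERG libraries, beside 25.5% of all genes, and 0 were called.

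**Figure D4:**
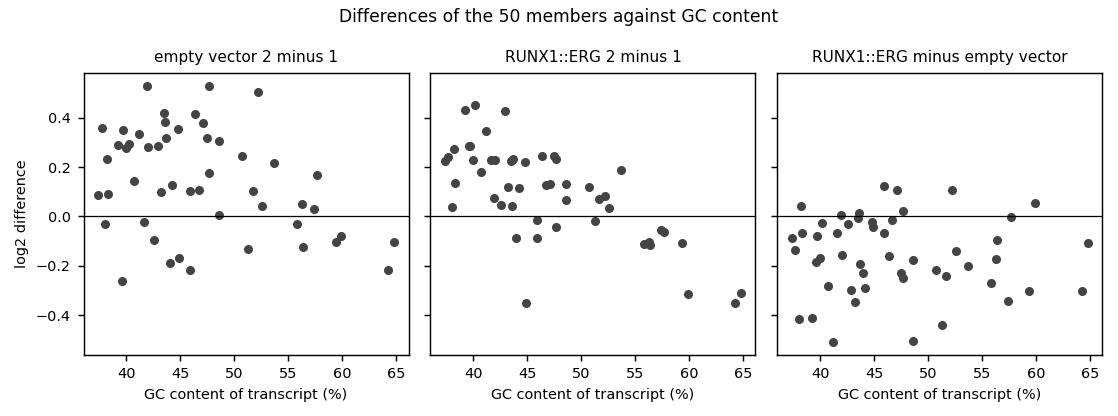
Log2 differences of the 50 members (y axis) against GC content of the canonical transcript (x axis, percent), for empty vector replicate 2 minus 1, RUNX1::ERG replicate 2 minus 1 and RUNX1::ERG minus empty vector; each point is a gene. The middle panel slopes down (r = -0.72), and the right panel shows no slope (r = -0.04), with most points below 0.

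Other genes of the same processes were taken from lists by function. In the 48 other replication factors, 30 were fitted lower, the median log2 fold change was -0.08 and edgeR's quasi-likelihood test called 0. DESeq2's Wald test called 1 and limma voom 0. At an unadjusted p of 0.05 in edgeR 1 was lower and 2 were higher, beside 7.26% and 10.7% of all genes. SSRP1, a subunit of the histone chaperone FACT, was at 456 and 511 CPM against 319 and 363 CPM (-0.50, adjusted p = 0.089). POLD4, the smallest polymerase delta subunit, was at 42.1 and 27.6 CPM against 61.5 and 47.4 CPM (0.64, adjusted p = 0.15). Without empty vector replicate 1 both passed the threshold, SSRP1 at -0.59 (adjusted p = 0.046) and POLD4 at 0.97 (adjusted p = 0.0024), and without RUNX1::ERG replicate 2 POLD4 did (0.81, adjusted p = 0.038). ASF1B, named after its values were seen, had an unadjusted p under 0.05 as well (0.38, adjusted p = 0.23). For nucleotide supply, 10 of 14 genes were fitted lower with a median of -0.04. DCTD, a deaminase on the path to thymidylate, was at -0.40 (adjusted p = 0.20), and RRM2, the small subunit of ribonucleotide reductase, was at 0.34 (adjusted p = 0.37). In this list DCTD alone had an unadjusted p under 0.05 in edgeR (7.14% lower, beside 7.26% of all genes). EdgeR, DESeq2 and limma voom called 0 genes.

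Of these lists, control of S phase entry held the genes called in edgeR. Of its 21 genes, 1 was called lower and 2 higher, beside 1.15% and 3.64% of all genes tested. At an unadjusted p of 0.05 in edgeR, 1 was lower and 4 were higher, beside 7.26% and 10.7% of all genes. CDKN1A, the inhibitor p21, rose from 26.2 and 24.6 CPM to 106 and 76.3 CPM (log2 fold change 1.84 ± 0.19 SE, adjusted p = 0.00049). CCND3, encoding cyclin D3, rose from 339 and 379 CPM to 787 and 678 CPM (1.03, adjusted p = 0.0031), and CCND2, encoding cyclin D2, fell from 48.3 and 36.8 CPM to 25.4 and 23.3 CPM (-0.80, adjusted p = 0.041). The call of CCND2 was lost without empty vector replicate 1 (adjusted p = 0.11), without either RUNX1::ERG library (0.13 and 0.097), and with scaling by library totals or upper quartile (0.067 and 0.053). The other 18 of these 21 genes did not pass, and the median of the list was 0.04. Of 30 mitotic genes 11 were fitted lower, with a median of 0.04, and MKI67 and NUSAP1 were at 0.46 (adjusted p = 0.18) and 0.32 (adjusted p = 0.29). Of 9 replication checkpoint genes 6 were fitted lower, with a median of -0.04, and RAD17 and CHEK1 were at -0.22 and -0.14. In these last lists edgeR, DESeq2 and limma voom called 0 genes. At an unadjusted p of 0.05 edgeR had 1 mitotic gene, MKI67, higher and 0 checkpoint genes, beside 10.7% of all genes higher and 7.26% lower. The members' median of -0.158 was thus the lowest among these 6 lists, and this difference between lists was not tested.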

How the data were processed

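Whole transcriptome sequencing was measured in 4 libraries of K562 cells, 2 with the empty vector and 2 with RUNX1::ERG, grouped by their titles. The authors deposited raw read counts per gene, 1 file per library, with genes given as NCBI numbers. By the methods and the submitters' processing notes, libraries were made from messenger RNA, sequenced as paired ends, aligned to hg19 with HISAT2 2.2.1 and counted with featureCounts 2.0.1. The annotation and strand setting are not given in the sources used here, so overlapping genes and genes with pseudogenes are uncertain. Of the counts from 1 to 10, 66.7% to 68.9% per library were even, as when both mates of a pair are counted, so independent fragments are fewer than the totals. A count of 0 allows up to 3 counts, 0.0356 to 0.0498 CPM, for counting error only. Replicates of a group differed by more than sampling noise (chi-square per degree of freedom 95.2 and 72.6). The study calls them biological replicates, and p-values set the group difference against the spread between these samples, which edgeR pools over many genes.

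Gene numbers were matched to RefSeq symbols for 92.2% of genes. Counts were analysed in R 4.3.3 with edgeR 4.0.16: TMM scaling, its filter on low counts, the quasi-likelihood test without a block, and Benjamini-Hochberg adjustment over 15394 genes with a threshold of 0.05. The standard error is the log2 fold change divided by the square root of F. Differences between single libraries used log2 of CPM plus 0.5. Positions, transcript length, GC content and exon overlaps came from the canonical transcripts of GENCODE v44 on GRCh37. Promoters came from RefSeq on GRCh38.p14. The fit was tested on simulated data with planted changes larger than that of any member. This does not show how often differences of the members' size would be called.

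Members and lists were chosen with earlier results of these data known, so lists are described by counts and medians beside all genes. Full statistics were given to at most 25 members with the smallest unadjusted p and to the first of each role group. Of other lists, called genes or otherwise the 2 genes with the smallest p were named. Alternatives were DESeq2 size factors, library totals and upper quartile scaling, no filter, at least 10 counts in every library, the DESeq2 1.42.0 Wald test, limma 3.58.1 voom, a replicate block and leaving out each library. Halved counts, for mates counted separately, were among them too, and a correction for GC content was added after the data were seen.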

Additional observations from a re-analysis of the deposited data

How the results depend on the processing

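Genes called over the whole table were 737, and 1500 with no filter (64.1% higher, against 76% in the main analysis), 1204 by DESeq2's Wald test, and 286 to 1336 when 1 library was left out, with 54.9% higher without empty vector replicate 2. Replication members called were 0 in every alternative except the replicate block (3) and the fits without 1 library (0 to 1, ORC5 without empty vector replicate 1). Other replication factors called were 2 with no filter, 1 by DESeq2's Wald test and 0 to 2 without 1 library. Members lower in both RUNX1::ERG libraries were 17 to 23 under the other alternatives, beside 19.1% to 25.5% of all genes, and 22 to 39 without 1 library, where 35.7% to 37.1% of all genes were lower. Members higher in both were 2 to 10 without 1 library, where 36% to 39.5% of all genes were higher, and 0 after the correction for GC content. The members' median stayed below 0 throughout, from -0.24 to -0.08 without 1 library. In edgeR, 6 members had an unadjusted p under 0.05 in the main analysis, 11 after the correction for GC content and 13 with the replicate block. Without 1 library, log2 fold changes ran from -0.51 to -0.38 for CDC45, -0.65 to -0.34 for GINS2 and -0.71 to -0.33 for ORC5. RFC3 ran from -0.45 to -0.4, MCM2 from -0.37 to -0.33 and MCM6 from -0.42 to -0.29. A fit without 1 library leaves 1 sample in a group, which is assumed to vary like the other group. With library totals the median of all genes was 0.04 and that of the members -0.115.

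The replicate block called 1733 genes (62.4% higher), 3 members (CDC45, ORC5 and GINS2, adjusted p = 0.025, 0.035 and 0.038) and 2 other replication factors. Nothing in the labels ties a number to a shared day, and there are only 2 pairs, so the samples share only a number. Deviations of same-numbered samples had r = 0.349 over all genes and 0.609 over the members.

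Of the 50 members, 23 had a fold change of the other sign in at least 1 of 14 alternatives, 16 of them only when a library was left out. With library totals, CDC6 and PRIM2 were at 0.02, POLD3 at 0.01, PCNA and CHAF1A at 0.04 and RPA2 at 0.03. With upper quartile scaling, CDC6 was at 0.01, PRIM2 at 0, PCNA and RPA2 at 0.02 and CHAF1A at 0.03. GINS1 was at -0.01 with DESeq2 size factors, no filter or DESeq2's Wald test, PCNA at 0 with voom or the block, and CHAF1A at 0 with halved counts. Without 1 library the ranges were ORC4 -0.22 to 0.02, CDC6 -0.19 to 0.17, GMNN -0.17 to 0.22, MCM4 -0.49 to 0.04, MCM9 -0.24 to 0.12, GINS1 -0.24 to 0.30, GINS4 -0.07 to 0.11, CDC7 -0.15 to 0, DBF4 -0.31 to 0.06, PRIM2 -0.29 to 0.18, POLD1 -0.27 to 0.02 and POLD3 -0.08 to 0.01. Likewise they were POLE2 -0.25 to 0.11, POLE3 -0.36 to 0.06, PCNA -0.21 to 0.22, RFC1 -0.20 to 0.04, RPA1 -0.07 to 0.31, RPA2 -0.09 to 0.05, RPA3 -0.17 to 0.04, FEN1 -0.13 to 0.38, LIG1 -0.11 to 0.19, CHAF1A -0.09 to 0.08 and WDHD1 -0.12 to 0.18. The cause of these changes was not tested.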
